A study of Mus musculus with 6 samples.

Results

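Natural killer (NK) cells of young and aged mice were examined here as a small population inside a single-cell study of marrow and blood that was sorted for other cells. An NK cell was a cell with at least 500 UMIs (unique molecular identifiers, each 1 captured transcript), at most 10% mitochondrial UMIs, at least 2 UMIs over Ncr1, Klrb1c and Klre1, no UMI of Cd3e, Cd3d, Cd3g or Cd79a, and under 100 CP10k of the neutrophil granule genes Camp, Ngp and Ltf (CP10k, UMIs per 10000 UMIs). The members were thus chosen by measured counts of these genes, which are described below without a test, except that Camp counts in a list of neutrophil markers. The rule found 647 NK cells among 26893 kept cells of 28055 deposited. The 6 libraries were made from wild-type mice with the Chromium 3′ v3.1 kit, and each group had 1 library. Of the 4 marrow libraries, which were enriched for Gr1+ cells and c-kit+ cells, 1 young and 1 aged came from untreated mice. The other 2, again 1 young and 1 aged, came from mice 24 h into an experimental stroke made by middle cerebral artery occlusion. Blood of untreated young and of untreated aged mice had been sorted for CD11b+ cells, both Ly6G+ and Ly6G-. The labels name the age groups without a number and do not say how many mice each library held. Blood after stroke is not analysed here.

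NK cells are innate lymphocytes that kill infected or transformed cells with perforin and granzymes and that release interferon-gamma and chemokines. They arise in the marrow from precursors that depend on interleukin-7 and then interleukin-15 signals. In the mouse they pass from an immature stage, with Cd27, Kit, Il7r and Ltb, to a mature stage, with Itgam (the alpha chain of CD11b), Klrg1, Zeb2 and S1pr5, and leave for the blood. Since the blood sort kept only CD11b+ cells and the marrow sort kept c-kit+ cells, the gates select on 2 proteins that mark these stages. Tissue and gate cannot be told apart in any comparison of blood with marrow.

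The 6 libraries gave 46 NK cells in young and 34 in aged steady-state marrow, 70 in young and 93 in aged marrow after stroke, and 112 in young and 292 in aged blood. Their summed depth ran from 285508 UMIs in young steady-state marrow to 1919340 in aged blood, and the median NK cell held between 3691 and 6081.5 UMIs. Of the 28055 barcodes deposited, 104 occurred in 2 or more libraries, and 2 NK cells carried a barcode that another library also held. The rule sat close to other cells in the marrow: 32.95% of the cells with at least 2 marker UMIs in young and 55.1% in aged steady-state marrow were set aside for a Cd3 transcript. The shares were 24.7% and 44.4% after stroke, then 8.66% and 4.18% in blood. Just inside the threshold, at 2 marker UMIs, lay 7, 11, 1, 15, 1 and 2 NK cells in the order of libraries given above. Just outside, at 1 marker UMI, lay 76, 108, 15, 40, 43 and 80 cells. The 8 NK genes Nkg7, Klrk1, Klrd1, Il2rb, Gzma, Ccl5, Txk and Eomes, outside the rule, were summed in each cell. In aged steady-state marrow their median was 0.585 CP10k at 2 marker UMIs and 2.03 at 0, with pooled levels of 7.48 and 4.68. A UMI of them was held by 54.5% and 70.0% of these cells. In each other library the median was higher at 2 than at 0, with 35.9 and 2.12 in young steady-state marrow. Whether the aged cells at 2 marker UMIs were NK cells was not tested.

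Further NK genes were present in nearly all NK cells of blood and in fewer of aged marrow. At least 3 of the 6 NK genes Nkg7, Klrk1, Klrd1, Il2rb, Txk and Ccl5, none of which the rule used, were present in 111 of 112 NK cells of young blood and 290 of 292 of aged blood. The same was true of 69 of 70 NK cells in young and 81 of 93 in aged marrow after stroke. In steady-state marrow it was true of 44 of 46 cells in young and 24 of 34 in aged mice. These 6 genes were counted after the data had been seen. A UMI of the T cell genes Trac, Trdc or Cd5, which the rule did not use, was held by 44 of 112 NK cells in young and 89 of 292 in aged blood. It was held by 22 of 70 young and 9 of 93 aged NK cells with stroke and by 5 of 46 and 4 of 34 in untreated marrow. Among the cells outside the rule, between 1.09% and 6.17% of a library held at least 3 of the 6 further NK genes.

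**Figure D1:**
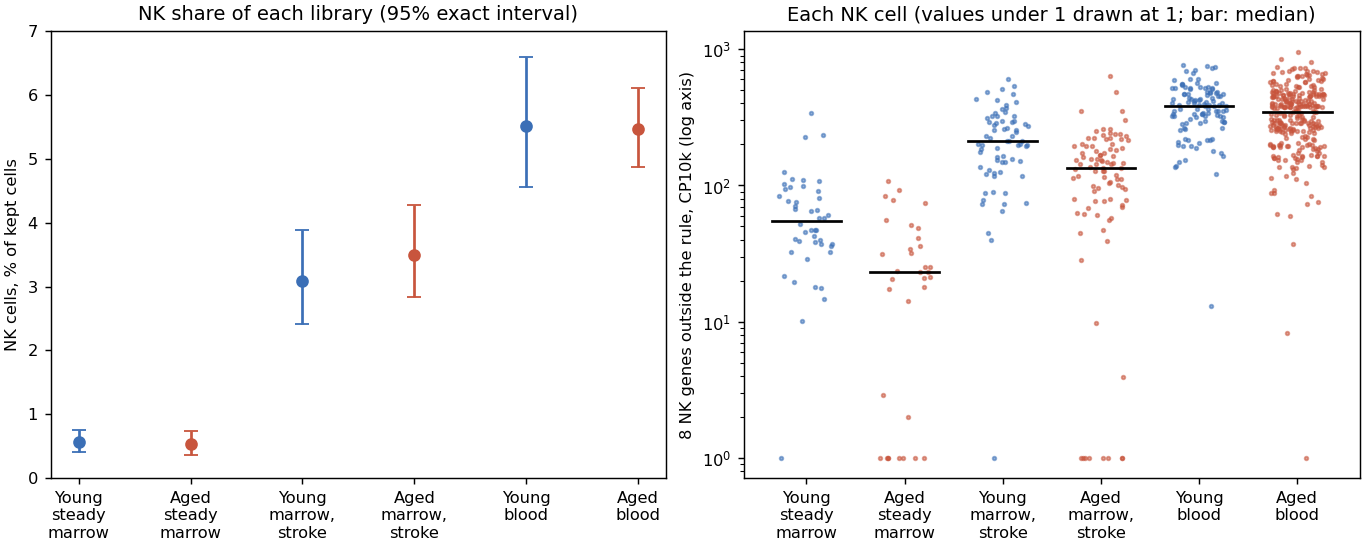
Left, NK cells as a percentage of kept cells in each of 6 libraries, with exact 95% binomial intervals. Right, the summed level of 8 NK genes outside the rule (Nkg7, Klrk1, Klrd1, Il2rb, Gzma, Ccl5, Txk, Eomes) in every NK cell on a log axis, with the median as a bar; the medians run from 23.3 CP10k in aged steady-state marrow to 386 CP10k in young blood.

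NK cells of steady-state marrow also carried transcripts of other marrow cells. S100a8, S100a9 and Lyz2, genes of neutrophils and monocytes, summed to 100 CP10k or more in 13 of 46 young and 8 of 34 aged NK cells there, against 2 of 70 and 1 of 93 after stroke and 13 of 112 and 22 of 292 in blood. At least 3 of 11 progenitor genes (Cd34, Kit, Ly6a, Mecom, Hlf, Procr, Meis1, Gata2, Adgrg1, Myb, Lmo2) were present in 12 of 46 young and 21 of 34 aged NK cells of steady-state marrow. They were present in 2 of 70 young and 14 of 93 aged NK cells after stroke, and in none of the 112 and 292 in blood. At steady state this was 26.1% of young and 61.8% of aged NK cells, against 56.1% and 59.8% of the cells outside the rule. The aged NK cells there thus held progenitor genes about as often as other cells. After stroke the shares were 2.86% and 15.1% of NK cells, against 20.5% and 31.3% of the others. The 17 neutrophil markers summed to between 75.3 and 276 CP10k in NK cells of steady-state marrow and blood and to 24.5 and 19.8 CP10k in those of marrow after stroke. The 13 monocyte markers gave 49.4 and 32.2 CP10k at steady state, 8.69 and 4.70 with stroke, and 28.7 and 37.7 in the blood libraries. Of 16 T cell markers, between 7 and 9 had no UMI in a library, the 3 Cd3 genes of the rule included, and the list summed to between 2.77 and 9.42 CP10k. ILC1 markers (genes of the tissue-resident innate lymphocytes closest to NK cells) summed to between 9.77 and 20.4 CP10k in marrow, highest in aged marrow after stroke, and to 1.54 and 2.29 CP10k in blood. The part of these transcripts in the differences below was not tested beyond the counts given with stricter definitions of the cell.

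**Figure D2:**
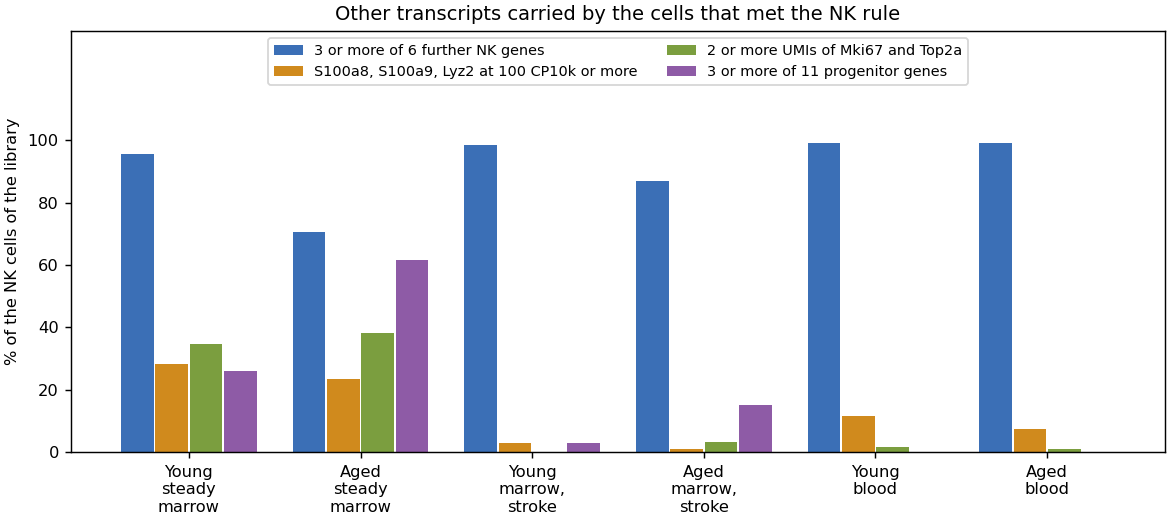
Percentage of the NK cells of each library that carried at least 3 of 6 further NK genes, 100 CP10k or more of 3 myeloid genes, at least 2 UMIs of the dividing-cell genes Mki67 and Top2a, or at least 3 of 11 progenitor genes. NK cells of both blood libraries and of young marrow after stroke mostly lacked the other transcripts, while those of steady-state marrow often held them.

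The NK shares were 0.560% (exact 95% binomial interval 0.410 to 0.746) of kept cells in young and 0.532% (0.369 to 0.743) in aged steady-state marrow. With stroke the young marrow share was 3.09% (2.42 to 3.89) and the aged share 3.50% (2.84 to 4.27). In blood they were 5.52% (4.57 to 6.60) of young and 5.47% (4.87 to 6.11) of aged cells. Within each setting the young and aged intervals overlapped. The marrow shares after stroke lay above both steady-state intervals. Without the cells that held Trac, Trdc or Cd5 the share was 2.12% in young marrow with stroke, 3.35% in young blood and 3.80% in aged blood. The shares were not tested between groups, the intervals cover counting error only, and what the gates let through can set such a share.

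Cytotoxic granule genes differed widely between the libraries. They are shown first by the DNA before their starts, from RefSeq on build GRCm38.p6, because Gzma (a tryptase-like granzyme), Prf1 (perforin, the pore former) and Nkg7 (a granule membrane protein) were all higher in blood than in marrow NK cells. Capitals mark matches, on either strand, to a T-box motif (AGGTGTGA), a RUNX motif (TGTGGTT) or an ETS motif (AGGAAGT), the core sites of 3 families of lymphocyte transcription factors. Each sequence is the 250 bases before the start, 5′ to 3′ on the gene's strand.
Gzma, chr13:113100982-113101231, minus strand: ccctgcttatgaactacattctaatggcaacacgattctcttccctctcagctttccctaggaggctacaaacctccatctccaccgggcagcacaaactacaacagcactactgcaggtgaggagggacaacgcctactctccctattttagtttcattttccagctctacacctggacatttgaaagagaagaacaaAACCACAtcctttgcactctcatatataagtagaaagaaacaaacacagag
Prf1, chr10:61297586-61297835, plus strand: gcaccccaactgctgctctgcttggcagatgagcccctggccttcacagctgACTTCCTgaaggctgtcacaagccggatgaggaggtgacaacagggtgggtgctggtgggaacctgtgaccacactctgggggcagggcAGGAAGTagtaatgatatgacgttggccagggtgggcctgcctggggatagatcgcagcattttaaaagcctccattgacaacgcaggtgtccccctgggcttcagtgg
Nkg7, chr7:43436888-43437137, plus strand: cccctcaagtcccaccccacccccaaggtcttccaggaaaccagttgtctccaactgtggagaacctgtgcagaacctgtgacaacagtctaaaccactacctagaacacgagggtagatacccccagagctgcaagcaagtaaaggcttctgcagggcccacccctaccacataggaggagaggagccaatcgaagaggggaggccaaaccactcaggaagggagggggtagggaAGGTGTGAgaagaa
Gzma held 1 RUNX match, Prf1 held 2 ETS matches and Nkg7 held 1 T-box match. Other genes were scanned and are not shown. Cma1, S1pr5, Zeb2, Itgam, Eomes and Klrb1c held 0 matches to any of the 3 motifs. Gzmb and Ncr1 held 1 RUNX match, as did Klre1 at 1 of its starts. Among 32851 promoter windows of the same 250 bases, 1.12% held the T-box motif, 4.40% the RUNX motif and 7.69% the ETS motif. A match is a stretch of letters and not a measured site.

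In untreated marrow Gzma was at 4.73 CP10k in young and 1.84 in aged NK cells. After stroke the 2 levels were 26.0 and 5.48 CP10k, and blood gave 136 and 116. The summed level of each blood library was above that of every marrow library, on 1 value per library. How many of all genes separate blood from marrow in this way was not counted. Cell by cell, Gzma was absent from 31 of 46 young and 29 of 34 aged NK cells at steady state. It was absent from 15 of 70 and 51 of 93 with stroke and from 1 of 112 and 3 of 292 in the blood libraries. Single cells of marrow and blood overlapped. The highest cell held 224 CP10k in young and 136 in aged marrow after stroke, against medians of 145 and 119 in blood. A single cell held 87.0% of the Gzma UMIs of aged steady-state marrow. Prf1 was at 1.02, 0.444, 2.40, 0.944, 13.6 and 12.6 CP10k in the same order of libraries. Gzmb, the granzyme that cleaves caspases, had no UMI in young steady-state marrow, where 3 counts would be 0.105 CP10k. It stood at 0.0342 CP10k in the aged counterpart, at 1.02 and 0.226 with stroke, and at 7.93 and 6.75 in the blood libraries. Nkg7 was at 11.9, 7.31, 23.3, 9.15, 35.9 and 35.6 CP10k, and Fasl, the death ligand, at 0.210, 0.171, 0.878, 0.677, 1.39 and 1.42 CP10k. Each of these 5 genes was lowest in a steady-state marrow library and highest in a blood library. Gzmk and Gzmm stayed under 0.18 CP10k in all 6 libraries.

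**Figure D3:**
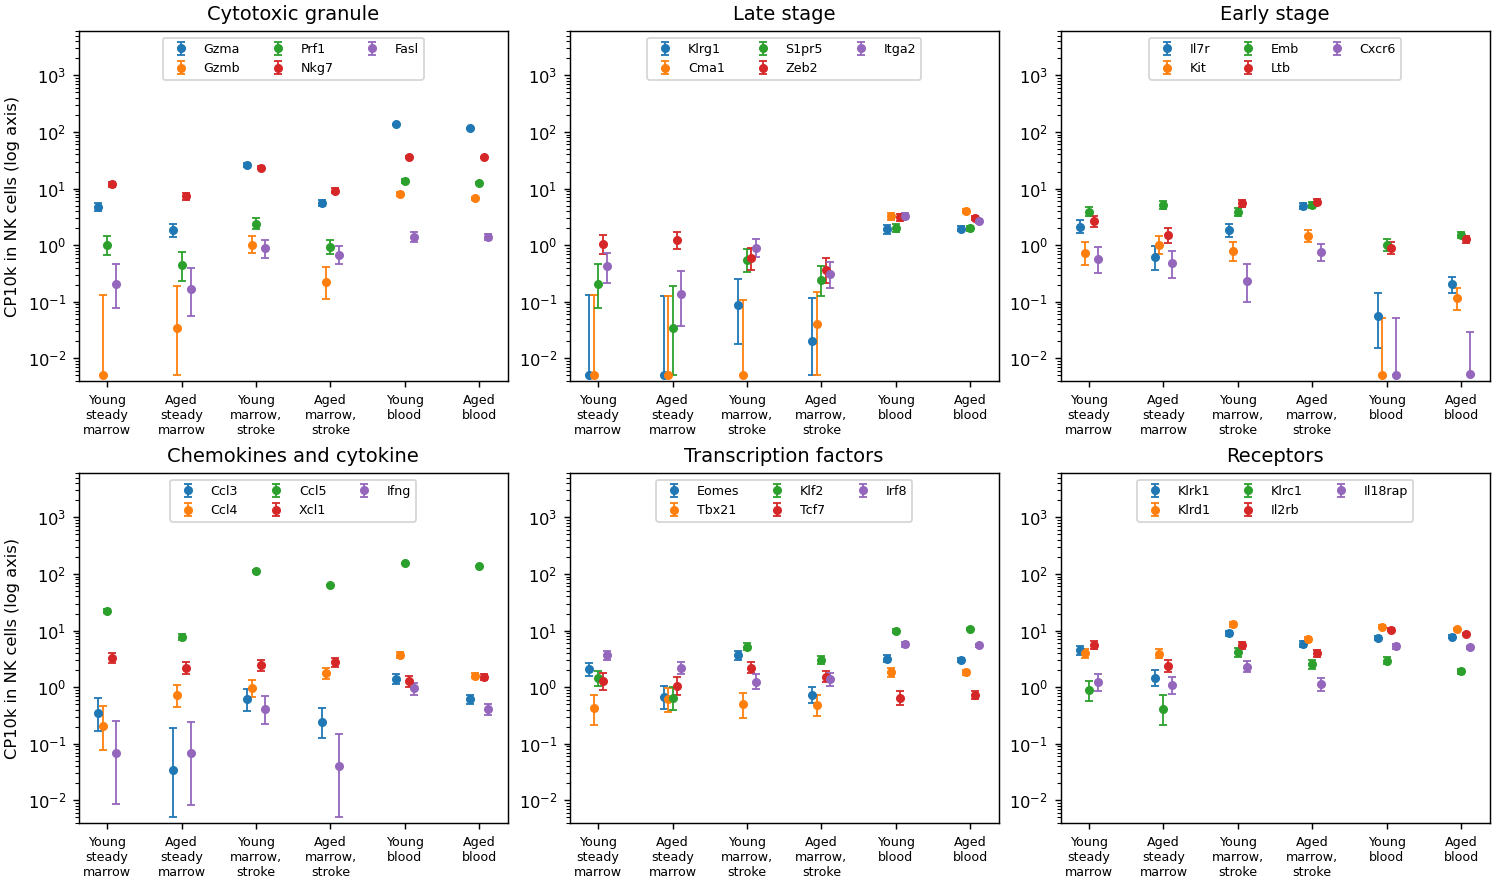
Level of 30 genes in NK cells of each library, in CP10k on a log axis with exact 95% Poisson intervals (counting error only; zeros and intervals that reach 0 are drawn at the bottom). Granule and late-stage genes stand highest in the 2 blood libraries, where Il7r, Kit and Cxcr6 stand lowest.

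Blood NK cells had more mature-stage transcripts than marrow NK cells. One additive fit over the 6 summed libraries (edgeR's quasi-likelihood test, context plus age, Benjamini-Hochberg adjustment over 6591 genes) compared the 2 blood libraries with the mean of the 2 marrow settings. With 1 library a group, its p-values set a difference against how unevenly young and aged libraries behaved across settings, and not against replicate mice. Of the 6591 genes, 2459 (37.3%) passed an adjusted p of 0.05, 1236 (18.8%) higher and 1223 (18.6%) lower in blood. Without aged blood 1127 genes passed, and DESeq2 called 901. Of 19 mature-stage genes tested, 18 were higher and none was lower, with a median log2 difference of 1.99 against 0.03 over all genes tested. The 18 include Itgam, the gene of the blood gate. Gzma was higher by 4.40 ± 0.26 (log2, SE; edgeR adjusted p = 2.6e-08) and Prf1 by 3.64 ± 0.22 (edgeR adjusted p = 2.7e-08). Cma1, a chymase-family protease, had 2 UMIs over the 4 marrow libraries and stood at 3.23 and 4.04 CP10k in blood (edgeR adjusted p = 8.9e-09). Klrg1, the inhibitory lectin of the latest stage, had 3 and 1 UMIs in marrow after stroke, none at steady state, and 1.91 and 1.96 CP10k in blood (edgeR adjusted p = 6.0e-08). S1pr5, the sphingosine receptor used to leave marrow, rose from between 0.0342 and 0.556 CP10k in marrow to 2.04 and 2.00 in blood. Itga2 (the integrin read by the DX5 antibody) rose by 2.92 ± 0.25, Zeb2 by 2.03 ± 0.19 and Tbx21 by 1.82 ± 0.20 on the log2 scale. Itgam, which encodes the sorted CD11b protein, is no finding between these gates; it stood at 2.18 and 2.98 CP10k in blood and between 0.103 and 0.630 in marrow.

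Early-stage transcripts were lower in blood. Of 19 immature-stage and precursor genes, 13 were lower and 1, Itga4, was higher, with a median of -1.10. The 13 include Kit, a gene of the marrow gate. Il7r, the interleukin-7 receptor, was at 2.14, 0.615, 1.84 and 4.95 CP10k in the 4 marrow libraries and at 0.0566 and 0.203 in the blood libraries. It fell by 3.92 ± 0.50 on the log2 scale (edgeR adjusted p = 3.1e-05). Kit, which encodes a protein used for the marrow enrichment, had no UMI in young blood and stood at 0.115 CP10k in aged blood, against 0.736 to 1.48 in marrow. Emb (embigin) fell by 1.89 ± 0.18, Ltb (lymphotoxin beta) by 1.66 ± 0.23 and Tcf7 by 1.07 ± 0.20. Cd27 did not pass the test, at 0.665, 0.546, 1.40, 0.821, 0.481 and 0.844 CP10k. Of 11 ILC1 genes, 10 were lower in blood and none was higher, with a median of -3.27. Cxcr6, a residency-linked chemokine receptor on that list, had 0 and 1 UMIs in blood and stood between 0.234 and 0.759 CP10k in marrow. Tmem176b, a membrane protein also abundant in other innate lymphocytes, fell by 5.195 ± 0.31.

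Most receptor genes tested were also higher in blood. Of 20 activating receptors and adaptors, 16 were higher in blood and 1, Cd160, was lower (median 1.001). The activating Klrc2 was at 0.385, 0.205, 1.90, 1.40, 3.50 and 2.93 CP10k and rose in blood by 2.18 ± 0.19. Of 11 inhibitory receptors, 9 were higher and 1, Cd200r1, was lower (median 1.65). The Ly49 gene Klra9 was at 0.350, 0.273, 2.52, 1.19, 7.85 and 5.09 CP10k, a rise by 3.08 ± 0.19. Ly49 genes are near-identical copies on 1 cluster, so reads of 1 member can be counted for another. Of 20 cytokine receptor genes, 9 were higher and 4 lower in blood. Il2rb, the shared beta chain of the interleukin-2 and interleukin-15 receptors, was at 5.53, 2.36, 5.47, 3.94, 10.4 and 8.61 CP10k, and Il18rap at 1.23, 1.09, 2.31, 1.13, 5.24 and 5.10. Both rose, by 1.16 ± 0.18 and 1.88 ± 0.20, whereas Kit and Il7r were among the 4 that fell.

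Of the transcription factors and trafficking genes, more were higher than lower in blood. Of 28 transcription factors, 15 were higher and 3 lower in blood (median 0.64). Klf2, which maintains egress receptors, was at 1.44, 0.649, 5.18, 2.997, 9.91 and 10.8 CP10k and rose by 2.36 ± 0.20. Irf8 rose by 1.49 ± 0.18, from between 1.26 and 3.64 CP10k in marrow to 5.75 and 5.55 in blood. Klf2 and Irf8 were also present in other blood cells, at 10.88 and 10.97 CP10k in young and aged blood for Klf2 and at 0.929 and 1.97 for Irf8. Of 21 trafficking receptors and integrins, 16 were higher and 2, Cxcr3 and Cxcr6, were lower. Itga4, an integrin alpha chain, rose by 1.71 ± 0.18. Among the secreted proteins, Ccl5 was at 21.96, 7.79, 112, 62.6, 153 and 138 CP10k and rose by 2.11 ± 0.18, while Xcl1, a chemokine for cross-presenting dendritic cells, fell by 0.97 ± 0.19 from between 2.22 and 3.26 CP10k to 1.26 and 1.51. Immediate early genes differed too, Junb by 2.01 ± 0.17 and Fos by 2.76 ± 0.25. They were higher still in the other blood cells, where Junb stood at 29.8 and 16.4 CP10k against 7.89 and 4.96 in blood NK cells.

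**Figure D4:**
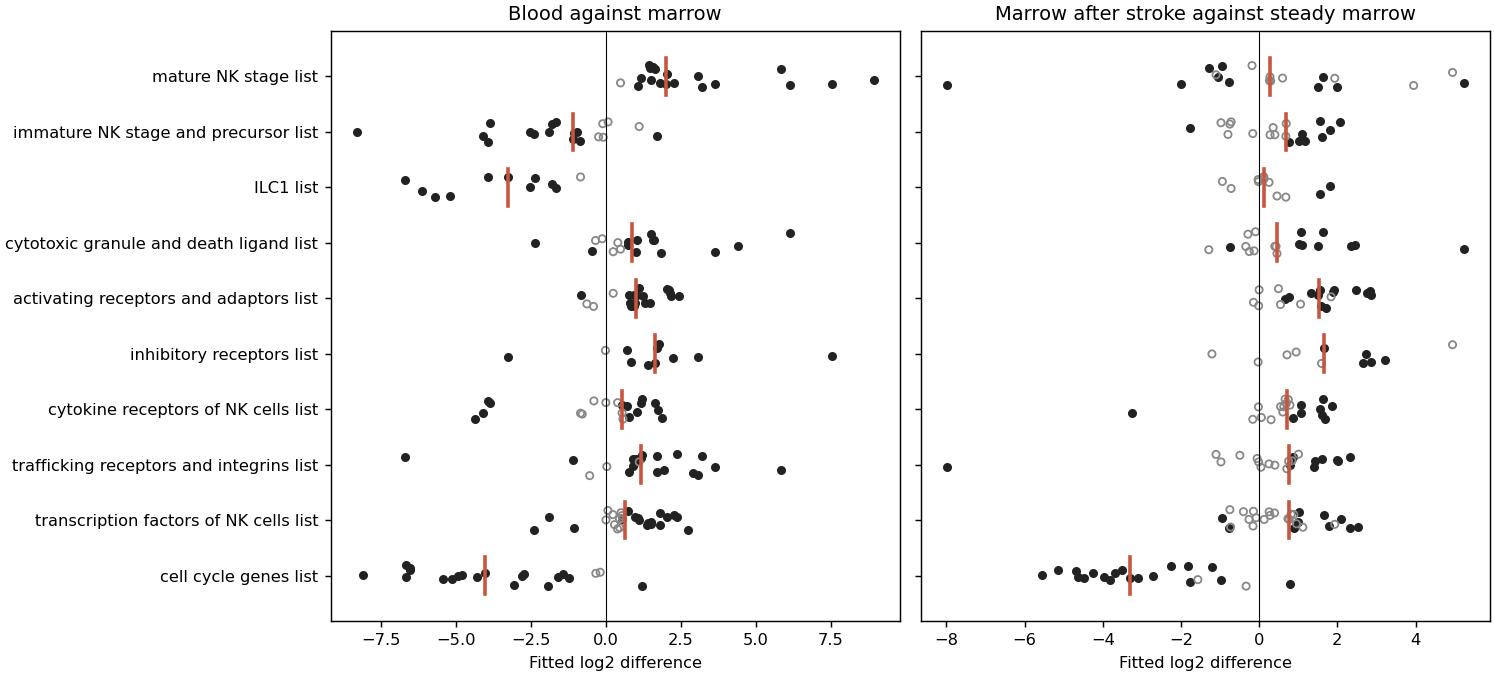
Fitted log2 difference of each tested member of 10 gene lists, for blood against marrow (left) and for marrow after stroke against steady-state marrow (right). Filled points passed an adjusted p of 0.05, open points did not, and the red bar is the list's median. In blood 18 of 19 mature-stage genes, the gate's gene Itgam included, are filled and right of 0. Cell cycle genes lie mostly left of 0 in both comparisons.

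NK cells with transcripts of dividing cells were seen mainly in steady-state marrow. Mki67, a mark of cycling cells, was at 3.96 and 2.32 CP10k there, had 0 and 4 UMIs after stroke, and 2 and 1 UMIs in blood. At least 2 UMIs of Mki67 and Top2a were held by 16 of 46 young and 13 of 34 aged NK cells of steady-state marrow. The counts were 0 of 70 and 3 of 93 after stroke and 2 of 112 and 3 of 292 in blood. Of 16 and 13 such cells, 16 and 11 also held at least 3 of the 6 further NK genes. These cells were deeper than the other NK cells of steady-state marrow. Their median was 8184.5 against 4261.5 UMIs in young and 13784 against 5040 in aged mice. The part of depth or of mixed droplets was not tested. Of 21 cell cycle genes, 18 were lower and 1, H2afz, was higher in blood (median -4.03), and again 18 were lower and H2afz was higher after stroke than at steady state (median -3.32). Over all kept cells of the same libraries the share with at least 2 such UMIs was 61.1% in young and 61.2% in aged untreated marrow, against 26.0% and 34.5% with stroke.

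Marrow NK cells after stroke had more NK effector and receptor transcripts than those of steady-state marrow. The 2 settings were separate library pairs, so stroke and library pair cannot be told apart. In the same fit 1227 genes (18.6%) passed, 655 (9.94%) higher and 572 (8.68%) lower after stroke. Without aged steady-state marrow 740 genes passed, without young marrow after stroke 741, and DESeq2 called 452. Of 27 NK identity genes, 18 were higher and none was lower, with a median log2 difference of 1.49, or 1.29 with the 1 gene that had no UMI in a setting placed at its bound. Ccl5 rose by 2.97 ± 0.23 (edgeR adjusted p = 5.9e-07) and Gzma by 2.45 ± 0.33 (edgeR adjusted p = 9.9e-05). Of 20 activating receptors and adaptors, 13 were higher and none was lower (median 1.53). Klrk1 (NKG2D) was at 4.52, 1.47, 8.92 and 5.75 CP10k in the 4 marrow libraries and rose by 1.70 ± 0.29, and its adaptor Hcst rose by 2.48 ± 0.20. Of 11 inhibitory receptors, 5 were higher and none was lower. Klrc1 (NKG2A) was at 0.876, 0.410, 4.12 and 2.57 CP10k and rose by 2.74 ± 0.25, and its partner Klrd1 (CD94) by 1.65 ± 0.22. Ctla2a, a protease inhibitor common in immature NK cells, was at 2.66, 2.46, 8.25 and 8.76 CP10k and rose by 2.08 ± 0.20. Prf1 rose by 1.49 ± 0.33 and Nkg7 by 1.03 ± 0.24. Without young marrow after stroke these last 2 no longer passed, at 0.96 for Prf1 (edgeR adjusted p = 0.15) and 0.51 for Nkg7 (edgeR adjusted p = 0.33).

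Maturation genes did not move together after stroke. Of 19 mature-stage genes, 4 were higher and 6 lower, with a median of 0.28, or -0.10 with the 3 genes that had no UMI in a setting placed at their bound. Cx3cr1, the fractalkine receptor, had 11 and 18 UMIs at steady state and none in either library after stroke, where 3 counts would be 0.0878 and 0.0616 CP10k. Ly6c2 fell by 1.99 ± 0.30, from 6.44 and 5.57 to 1.49 and 0.924 CP10k. Of 19 immature-stage genes, 8 were higher and 1, Cd34, was lower. Ltb rose by 1.80 ± 0.26, from 2.66 and 1.503 to 5.53 and 5.81 CP10k. Klf2 rose by 2.31 ± 0.29 and Ifngr1, a chain of the interferon-gamma receptor, by 1.85 ± 0.24. Cx3cr1, Ly6c2 and the mature-stage gene Lgals1 are also genes of monocytes, whose marker list moved in the same direction.

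Glucocorticoid-responsive genes were higher after stroke. Of 17 tested, 9 were higher and none was lower (median 1.11 against -0.04 over all genes tested). Tsc22d3 (GILZ), a direct target of the glucocorticoid receptor, was at 0.350, 0.922, 2.49 and 2.61 CP10k in the 4 marrow libraries, a rise by 2.36 ± 0.29 (edgeR adjusted p = 4.4e-05). Ddit4 was at 0.175, 0.0683, 1.29 and 0.513 CP10k in the 4 marrow libraries, a rise by 3.16 ± 0.53 (edgeR adjusted p = 0.00064). In the other cells of the same libraries Tsc22d3 was at 0.347, 0.433, 1.18 and 0.703 CP10k, and Ddit4 at 0.0374, 0.0509, 0.417 and 0.213. The direction was thus shared with the rest of the marrow.

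Several of the genes that led this comparison were also higher in all other cells of the same libraries. The ribosomal RNA transcript AY036118 was at 4.83, 3.21, 33.03 and 33.7 CP10k in marrow NK cells and at 3.23, 2.30, 17.1 and 13.8 in the other marrow cells. The ubiquitin gene Ubb was at 3.43, 3.86, 18.3 and 15.2 CP10k in NK cells and at 3.29, 4.02, 15.3 and 14.5 in the others. Eef1a1, a translation factor, was at 3.50, 4.27, 13.7 and 25.1 CP10k in NK cells and at 3.18, 3.26, 9.46 and 14.0 in the others. The genes that led the lower side were Mpo, Lyz2 and Elane, made by neutrophil and monocyte precursors. Mpo was at 14.7 and 16.3 CP10k in NK cells at steady state and 0.351 and 0.616 after stroke, against 28.4, 26.4, 5.16 and 8.96 in the other marrow cells. In the same fit on all other cells, Mpo was at -1.70 and Elane at -1.55 on the log2 scale, but Lyz2 was at 0.07. Retnlg and Ccl6, next on the lower side, were at -4.48 and -5.24 in NK cells and at 1.53 and 0.90 in the others. Of 15 neutrophil markers 14 were lower after stroke, as were 7 of 9 monocyte markers. The neutrophil markers include Camp (-1.04), a gene that the rule limited, so its part in that count is no finding. In the other marrow cells the neutrophil markers summed to 1040 and 980 CP10k at steady state and to 1262 and 1414 after stroke. The lower neutrophil list was thus not shared with the other cells.

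Averaged over the 3 settings, age was linked to few genes in NK cells. In the same fit 14 of 6591 genes (0.212%) passed, 12 (0.182%) higher and 2 (0.0303%) lower in aged NK cells, 486 had an unadjusted p under 0.05, and DESeq2 called none. Of 27 NK identity genes none passed, with a median of -0.36 against 0.00 over all genes tested. With 0.212% of all genes passing, a count of 0 in so short a list is no result about these genes. In the marrow age term of a fit described below, 8 of 27 were lower and 0 higher. The haemoglobin gene Hba-a1 had 0, 1, 0 and 1 UMIs in the marrow libraries and stood at 0.297 and 6.58 CP10k in young and aged blood. One NK cell held 92.6% of the Hba-a1 UMIs of aged blood, and Hba-a1 stood at 27.8 and 34.9 CP10k in the other blood cells. Without young blood its difference was 3.93 (edgeR adjusted p = 0.69) and without aged blood 3.34 (edgeR adjusted p = 0.80). Hbb-bs, the other globin that passed, stood at 0.765 and 13.4 CP10k in blood, with 88.8% of the aged UMIs in 1 cell, and its difference was -0.20 without young blood and -0.19 without aged blood. Adgrg1, an adhesion receptor counted above among the progenitor genes, was at 0.876 and 2.94 CP10k in young and aged steady-state marrow. It was at 0.205 and 1.13 CP10k after stroke, with no UMI in blood. Tmem176b was at 2.03 and 3.42 CP10k at steady state, 1.14 and 3.86 after stroke, and 0.0283 and 0.109 in blood. Cd81, a tetraspanin, was at 0.595 and 1.47, 0.176 and 0.636, and 0.0283 and 0.193 CP10k. Mt1 (metallothionein) and Sult1a1 (a sulfotransferase) also passed. So did Pf4 (a platelet marker, 5.55), Cavin2 (4.80), Cldn5 (7.17), Trim47 (3.31) and Grk3 (2.54), each with a mean under 50 CPM. In all other cells the age difference was 9.50 for Cldn5, 2.13 for Trim47, 1.67 for Sult1a1, 1.67 for Cavin2 and 0.92 for Pf4. It was between 0.26 and 0.49 for Adgrg1, Mt1, Grk3, Tmem176b and Cd81, -1.86 for Hba-a1 and -2.44 for Hbb-bs. Tmem176b, Mt1 and Sult1a1 no longer passed without young marrow after stroke (0.90, 1.46 and 2.73 on the log2 scale) or without aged marrow after stroke (0.90, 1.48 and 2.56). Cd81 no longer passed without young marrow after stroke (1.64) or young blood (1.51). The number of genes that passed was between 31 and 101 when each library was left out in turn. With only the cells that held at least 3 of the 6 further NK genes, Adgrg1 was higher by 1.21 (edgeR adjusted p = 0.93) and Tmem176b by 0.76 (edgeR adjusted p = 0.79).

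In marrow, taken apart from blood, Gzma, Eomes, Ccl5, Nkg7 and Prf1 were lower in aged NK cells. A fit added after the data had been seen gave age 1 term in marrow and another in blood, which leaves 1 residual degree of freedom. That degree of freedom comes from the 4 marrow libraries. The blood term is therefore given as a value without a test, and the test of marrow minus blood assumes that the blood libraries vary like those of marrow. It called 53 of 7697 genes (0.689%) in marrow, 25 (0.325%) higher and 28 (0.364%) lower in aged NK cells. Of 18 cytotoxic granule and death ligand genes, 3 were lower in aged marrow and none was higher, with a median log2 difference of -0.36 against 0.00 over all genes tested. Gzmb (-1.97, edgeR adjusted p = 0.079) and Fasl (-0.33, edgeR adjusted p = 0.88) did not pass. The difference between the 2 age terms passed for 20 genes (0.260%), 16 (0.208%) with a more positive term in marrow and 4 (0.0520%) with a more negative one. Gzma was lower in aged marrow by a log2 of -1.87 (edgeR adjusted p = 1.3e-05) against -0.23 in blood, and the difference between them was -1.64 (edgeR adjusted p = 0.011). Eomes, the T-box factor of the NK lineage, was at 2.10 CP10k in young and 0.683 in aged steady-state marrow. The young and aged levels were 3.63 and 0.739 CP10k with stroke, and blood held 3.19 and 2.99. Its difference was -2.0 in marrow (edgeR adjusted p = 0.00061) and -0.08 in blood, and these 2 terms differed (edgeR adjusted p = 0.026). Tbx21, the other T-box factor, was at 0.420 and 0.615 CP10k at steady state and 0.497 and 0.493 after stroke and did not pass. Ccl5 was lower in aged marrow by -1.12, Nkg7 by -1.02 and Prf1 by -1.27. For these 3 the difference between marrow and blood did not pass, with edgeR adjusted p of 0.17, 0.29 and 0.38. Ifitm1, an interferon-induced membrane protein also abundant in progenitors, was higher in aged marrow, at 0.736 and 5.46 CP10k at steady state and 2.37 and 13.03 after stroke, where 1 cell held 82.7% of its young UMIs. The Ly49 gene Klra3 was at 0.806 and 0.102 CP10k in untreated, 1.76 and 0.513 in stroke and 1.94 and 4.37 in blood NK cells, young before aged, and its marrow and blood terms differed by -3.18 (edgeR adjusted p = 0.0012). The NK identity gene Khdc1a had 3 and 0 UMIs in untreated marrow, 1.29 and 0.185 CP10k with stroke and 0.991 and 1.11 in blood. The myeloid cell genes and progenitor genes given above differed in the same libraries.

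The lower Gzma and Eomes of aged marrow kept their direction in cells with more NK transcripts. With at least 3 of the 6 further NK genes, Gzma was at 4.92 and 2.46 CP10k in young and aged steady-state marrow and 27.3 and 7.13 after stroke, and its marrow difference was -1.52 (edgeR adjusted p = 1.3e-07). Eomes was then at 2.15 and 0.910 CP10k and at 3.81 and 0.961, a difference of -1.65 (edgeR adjusted p = 0.00040). The difference between marrow and blood still passed for Gzma (edgeR adjusted p = 0.018) and not for Eomes (edgeR adjusted p = 0.067). Prf1 (-0.94, edgeR adjusted p = 0.30) no longer passed in marrow, nor did Nkg7 (-0.69, edgeR adjusted p = 0.13), which is 1 of the 6 genes. With at least 3 marker UMIs, only 2 genes passed in marrow, and Gzma, at -1.72 (edgeR adjusted p = 0.013), was 1 of them, while Eomes, at -1.63 (edgeR adjusted p = 0.055), did not pass. The difference from blood was then not past the threshold for Gzma (edgeR adjusted p = 0.24) or Eomes (edgeR adjusted p = 0.29). Without cells holding Trac, Trdc or Cd5, Gzma (-1.58, edgeR adjusted p = 0.0012) and Eomes (-2.28, edgeR adjusted p = 0.00018) still passed in marrow. The difference from blood then passed for Eomes (-2.03, edgeR adjusted p = 0.033) but not for Gzma (-1.49, edgeR adjusted p = 0.11) or Ccl4 (1.92, edgeR adjusted p = 0.088). In the additive fit without young blood, where age rests on the marrow libraries, Gzma was at -1.87 (edgeR adjusted p = 9.0e-05) and Eomes at -2.001 (edgeR adjusted p = 0.0013). Without a marrow library after stroke neither passed, with Gzma at -0.67 whichever was left out and Eomes at -0.53 without the young and -0.56 without the aged one.

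**Figure D5:**
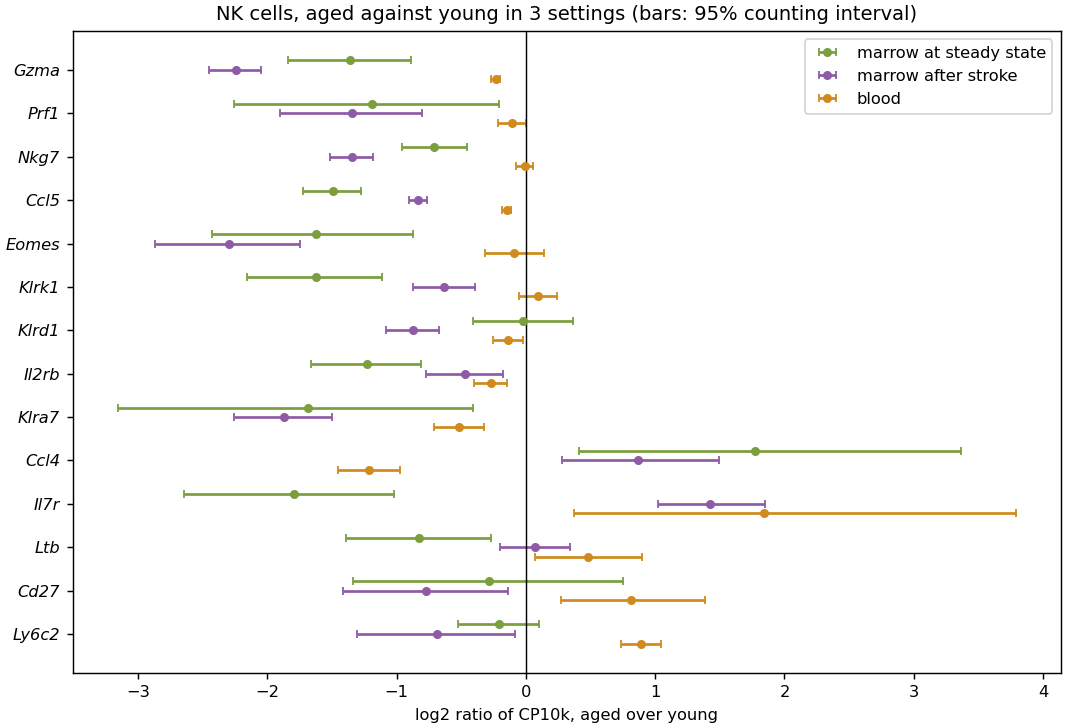
Log2 ratio of CP10k, aged over young, for 14 NK genes in steady-state marrow, marrow after stroke and blood; bars are exact 95% intervals of the 2 counts and cover counting error only. Gzma, Prf1, Nkg7, Ccl5 and Eomes lie left of 0 in both marrow settings and near 0 in blood, while Il7r and Ccl4 change side between settings.

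The main NK genes differed little between young and aged blood. Between the steady-state marrow libraries, 4.06% of 4780 genes with at least 20 UMIs over the pair were 2-fold or more higher with age and 4.35% lower. In marrow after stroke the shares were 5.96% and 4.58% of 5063 genes. Among 8877 genes with at least 20 UMIs over the blood pair, 371 (4.18%) were at least 2-fold higher and 310 (3.49%) at least 2-fold lower in the aged library. Nkg7 was at 35.9 and 35.6 CP10k, a log2 ratio of -0.01 (95% counting interval -0.08 to 0.06). Prf1 had a ratio of -0.11 (-0.22 to 0.00) and Klrk1 of 0.09 (-0.05 to 0.24). The secreted proteins Ccl4, Ccl3 and Ifng differed by more. Ccl4 was at 3.72 CP10k in young and 1.605 in aged blood, a log2 ratio of -1.21 (-1.46 to -0.97), Ccl3 at 1.40 and 0.615, and Ifng at 0.949 and 0.412. Ccl3 and Ccl4 are neighbours on chromosome 11 of GRCm38 (Ccl3 83647844 to 83649355, Ccl4 83662584 to 83664683).

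Il7r was highest in aged marrow after stroke. It was at 4.95 CP10k there against 1.84 in young marrow after stroke, a log2 ratio of 1.42 (1.02 to 1.85), while at steady state the aged library was lower, by -1.80 (-2.64 to -1.02). After each cell had been thinned to 2500 UMIs, 40 of 84 aged and 12 of 65 young NK cells after stroke held an Il7r UMI (9 and 5 shallower cells left out). Without thinning the shares were 50.5% and 22.9%. Il7r did not pass for age in the fit (edgeR adjusted p = 0.89). T cells of the aged library after stroke held Il7r at 7.68 CP10k, and ILC1 markers were highest in that library, as given above.

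Against T cells of the same libraries, NK cells differed by age in 14 of 4529 genes (0.309%; 0.0221% higher and 0.287% lower), in a fit added after the data had been seen that tests the NK difference minus the T difference over 12 summed profiles. T cells were cells with Cd3 transcripts and none of the 3 NK marker genes, 31 to 53 a library. Ccl3 was the first of them, with -5.70 ± 0.83 (log2, SE; edgeR adjusted p = 0.00042), and the Ly49 pseudogene Klra13-ps came next with -2.99 (edgeR adjusted p = 0.00095). The others included Il18r1 (edgeR adjusted p = 0.015), Klrc1 (edgeR adjusted p = 0.015), Eomes (edgeR adjusted p = 0.016), Sh2d1a (edgeR adjusted p = 0.035) and Prf1 (edgeR adjusted p = 0.048). These genes were more negative in NK than in T cells. In T cells Ccl3 was at 0.0578 CP10k in young and 3.76 in aged marrow after stroke, and Eomes at 0.116 and 0.422. The same fit called 55 genes (1.21%) for stroke, 0.287% higher and 0.927% lower in NK cells. For blood it called 385 (8.50%), 2.65% higher and 5.85% lower. In blood, Prf1 (4.46, edgeR adjusted p = 2.7e-06) and Tbx21 (3.19, edgeR adjusted p = 0.013) were more positive in NK than in T cells. Gzma (-0.39, edgeR adjusted p = 0.83) and Zeb2 (0.68, edgeR adjusted p = 0.45) did not pass there. For stroke, the Ctla2a difference was more positive by 1.78 ± 0.41 in NK than in T cells (edgeR adjusted p = 0.014). The other effector and receptor genes named above for stroke mostly did not pass this comparison. Ccl5 (1.98, edgeR adjusted p = 0.096), Klrk1 (1.74, edgeR adjusted p = 0.16) and Prf1 (1.89, edgeR adjusted p = 0.19) did not pass. Neither did Gzma (1.29), Klrc1 (1.32), Nkg7 (0.72) or Klrd1 (0.28), each with an edgeR adjusted p above 0.8.

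Checkpoint receptors were near 0 in NK cells. Pdcd1, Tigit and Lag3, checkpoint receptors of exhausted lymphocytes, had at most 6 UMIs in any library. Of 18 interferon-stimulated genes tested, none passed for age, where 0.212% of all genes did, so this count is no result about them. After stroke 1, Ddx58, was higher, against 9.94% of all genes. In blood 7 were higher and 2 lower, against 18.8% and 18.6% of all genes. Ifi27l2a was at 1.86, 0.239, 0.0585, 0.369, 2.35 and 1.21 CP10k, and at 13.8 and 9.06 CP10k in the other cells of young and aged blood. Isg15 stayed under 0.54 CP10k in all 6 libraries.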

How the data were processed

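Per the labels, single cells were captured with the Chromium 3′ v3.1 kit. Per the submitters' processing notes, the tools included Cell Ranger 3.0.2, STAR 2.5.3a, featureCounts 1.6.4, Subread and UMI-tools, with builds GRCm38 and mm10, without their roles. Raw UMI counts per gene and cell were used as deposited, in 1 table of all 6 libraries. Cells with at least 500 UMIs and at most 10% mitochondrial UMIs were kept (Python 3.11.15), between 79.3% and 100% of a library. No doublet caller was run; the rule's gene exclusions were the only step against mixed cells. NK counts were summed per library (285508 to 1919340 UMIs) and fitted with edgeR 4.0.16 (R 4.3.3), with DESeq2 1.42.0 as an alternative. The fit was tested on simulated data. Single counts and shares have exact 95% Poisson and binomial intervals, which cover counting error only, and a count of 0 was given a limit of 3 counts.

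The members and gene lists were chosen with earlier results of these data known. Named genes were a fixed list of NK genes, up to 8 per direction and fit with the lowest p and a mean of at least 50 CPM, up to 6 called members per direction of each list, and 6 per direction with the largest age ratio of 1 sign. Ifitm1, Cavin2, Cldn5, Trim47 and Grk3 fall outside that rule. They and the progenitor genes were chosen after their values were seen, as were the genes named from the added fits. Alternatives changed the NK definition, the normalization, the filter, the tool and the libraries. The age fit per tissue, the comparison with T cells and the definitions by myeloid or further NK genes were added after the data had been seen.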

Additional observations from a re-analysis of the deposited data

Results flagged for a closer look

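In the fit with 1 age term per tissue, the age difference in marrow minus that in blood passed the test for 20 genes. On the fixed list of NK genes these were Eomes, with a log2 value of -1.917, Gzma with -1.645 and Ccl4 with 2.321. Of the others, the Ly49 gene Klra3 had -3.18, Khdc1a had -3.014 and Ifitm1 had 5.022, and these 3 were chosen after their values were seen. The test rests on a spread measured in marrow only, and Ly49 genes are near-identical copies. Without cells holding Trac, Trdc or Cd5, Gzma (-1.49, edgeR adjusted p = 0.11) and Ccl4 (1.92, edgeR adjusted p = 0.088) no longer passed. Other genes changed side between settings in the ratio of the aged to the young library, and those differences between settings were not tested. Ccl4 had log2 ratios of 1.771 in steady-state marrow, 0.8706 in marrow after stroke and -1.215 in blood. Il7r had 1.424 after stroke and 1.843 in blood, against -1.797 in steady-state marrow. Ltb had 0.4763 in blood and -0.8249 in steady-state marrow. Cd27 had 0.8098 in blood and -0.7743 after stroke. Ly6c2 had 0.8872 in blood and -0.6918 after stroke. Ifi27l2a had 2.659 after stroke, -2.957 in steady-state marrow and -0.9596 in blood. In the cells with at least 3 of 6 further NK genes it stood at 0.0614 CP10k in young and 0.0534 in aged marrow after stroke, on 2 UMIs each, a log2 ratio of -0.20. Each ratio rests on 1 library per age.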

How the results depend on the processing

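With 1 library per group, no value has a replicate check, and the number of NK cells (34 to 292 a library) limits precision. Among the main counts and shares, 76 alternatives stayed within 1.5 times the main count or inside the share's interval and 34 did not. Shares of NK cells moved to 0.402% in young steady-state marrow without cells of 100 CP10k or more of S100a8, S100a9 and Lyz2, and to 0.360% in aged steady-state marrow with at least 3 marker UMIs. Without cells holding Trac, Trdc or Cd5 they moved to 2.12% in young marrow after stroke, 3.35% in young blood and 3.80% in aged blood. The count of age genes was 89 with no filter, 23 with size factors from DESeq2, 0 with its test, 4 with at least 3 marker UMIs, 0 without Trac, Trdc or Cd5, 3 with further NK genes, 75 without steady-state marrow and 29 without blood, and 31 to 101 with a library left out. The stroke count was 452 with DESeq2, 747 without Trac, Trdc or Cd5 and 740 to 1315 with a library left out. The blood count was 901 with DESeq2 and 1127 to 2460 with a library left out. For age in marrow it was 2 with at least 3 marker UMIs, 138 with Camp, Ngp and Ltf below 20 CP10k, 115 with the limit on myeloid genes and 19 with further NK genes. For marrow minus blood it was 7 with at least 3 marker UMIs, 13 without Trac, Trdc or Cd5, 48 and 34 with the granule and myeloid limits and 31 with further NK genes. Hbb-bs turned to -0.20 and -0.19 without young or aged blood, with a range of -0.20 to 3.996 over libraries. Beyond what a definition removes, the cause was not tested. In the age fit per tissue, leaving out a marrow library leaves no residual degree of freedom; leaving out a blood library leaves the marrow age difference, with 50 genes without the young and 63 without the aged one. No paired analysis was possible because each group has 1 library and replicate numbers follow accession order.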
